A study of Homo sapiens with 16 samples.

Results

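The genes of cholesterol synthesis and of the SREBP pathway were followed through cinobufagin treatment in 2 human liver cancer cell lines. The set holds 30 genes chosen by name for their role in the pathway, and all 30 were found among the 16697 gene identifiers listed in at least 1 library and passed the filter on low counts. HepG2 and Huh-7 are established hepatoma lines. Cinobufagin, a bufadienolide steroid of toad venom known to block the sodium pump, was given at 5 µmol/L. HepG2 had 1 untreated library, 3 libraries after 12 h and 3 after 24 h. Huh-7 had 3 untreated libraries, 3 after 12 h and 3 after 24 h. The labels give no vehicle treatment and no untreated culture kept for the same hours, so the drug and the time in culture cannot be told apart. RNA was captured on oligo-dT beads and sequenced, and all 16 libraries entered 1 fit.

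Cells make cholesterol from acetyl-CoA through the mevalonate pathway, which also supplies the isoprenoid groups attached to proteins, and then through squalene, lanosterol and a chain of sterol intermediates. The SREBP transcription factors are held in the endoplasmic reticulum by SCAP and the INSIG proteins when sterol is plentiful. When sterol is scarce, SCAP carries them to the Golgi, where they are cut and released to the nucleus. SREBP2, the product of SREBF2, mainly drives cholesterol synthesis and uptake genes, and SREBP1, from SREBF1, mainly drives fatty acid synthesis. Hepatocytes are a major site of both syntheses.

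Totals of 9543048 to 10457853 expected counts per library stood behind these values, and the upper limit behind a gene listed at 0, 3 counts, equals 0.287 to 0.314 CPM (the count scaled to library size), for counting error only. Levels are given as CPM on the TMM scale, which compares 1 gene between libraries, and as FPKM, per gene length, where genes are compared with each other. No label says that replicate libraries were grown as separate cultures, and every p-value measures the spread between libraries, which may be technical. Untreated HepG2 is a single library, whose spread was taken to equal that of the other groups. In bulk RNA of this kind, fewer cells with a transcript and less of it per cell cannot be told apart. Of 16 hepatocyte markers looked up, 11 were listed in at least 1 library, and APOB, APOC3, TTR, FGG and SERPINA1 were listed in none. AFP and APOA1, which define hepatoma and liver secretion, were at 0 CPM in the untreated HepG2 library and averaged 0.0276 and 0 CPM in untreated Huh-7. The urea cycle enzyme CPS1 was at 2593 CPM in the untreated HepG2 library and averaged 649 CPM in untreated Huh-7, so the lines are called here by their labels alone. The summed level of the 16 hepatocyte markers was 2600.4 CPM in untreated HepG2, 2368 to 2386 CPM at 12 h and 2352 to 2473 CPM at 24 h. In Huh-7 that sum was 679.8 to 698 CPM untreated, 619 to 639 CPM at 12 h and 389 to 428 CPM at 24 h. CPS1 made up nearly all of these sums, and HNF4A, a hepatocyte transcription factor, averaged 0.605, 0 and 0.033 CPM in HepG2 at 0, 12 and 24 h, beside 30.8, 0.604 and 0.275 CPM in Huh-7. The summed level of 5 biliary or other epithelial markers moved with treatment as well, at 1545 CPM in untreated HepG2, 1251 to 1301 CPM at 12 h and 654 to 711 CPM at 24 h, and at 466 to 473, 341 to 361 and 193 to 206 CPM over the same times in Huh-7. The sums of 4 fibroblast, 4 endothelial and 4 leukocyte markers did not exceed 137, 59.5 and 59.9 CPM in any library. Some of these markers were well above 0. In untreated HepG2 COL1A1 was at 60.6, DCN at 53.5, PDGFRB at 22.7, CDH5 at 26.0 and CD68 at 48.6 CPM. In untreated Huh-7 COL1A1 averaged 37.1 CPM and CD68 54.3 CPM. COL1A2 was at or near 0 in every group, and CD3E was listed in no library. The part of these markers in the results below was not tested.

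The promoters of 6 members are shown because their transcripts stand for the patterns described below: SREBF2 was called higher in Huh-7 at 24 h, NPC1 was called higher and HSD17B7 lower at both times in both lines, HMGCS1 was called higher at 12 h in both, and SC5D and TMEM97 differed between the lines. Each is the 250 bases before a RefSeq gene start on GRCh38.p14, written 5′ to 3′ on the gene's strand, and the capitals mark a sterol response element, TCACNCCAC, or a CCAAT box, the motif bound by NF-Y, on either strand (ATTGG on the other). The windows are chr22:41832855-41833104 on the plus strand for SREBF2, chr5:43313413-43313662 on the minus strand for HMGCS1, chr1:162790452-162790701 on the plus strand for HSD17B7, chr11:121292521-121292770 on the plus strand for SC5D, chr17:28318950-28319199 on the plus strand for TMEM97 and chr18:23586507-23586756 on the minus strand for NPC1. HMGCS1 and SC5D each have 2 windows in the table, of which 1 is shown: the other HMGCS1 window, at chr5:43313182-43313431, holds no match, and the other SC5D window, at chr11:121292602-121292851, holds 1 CCAAT box.
SREBF2: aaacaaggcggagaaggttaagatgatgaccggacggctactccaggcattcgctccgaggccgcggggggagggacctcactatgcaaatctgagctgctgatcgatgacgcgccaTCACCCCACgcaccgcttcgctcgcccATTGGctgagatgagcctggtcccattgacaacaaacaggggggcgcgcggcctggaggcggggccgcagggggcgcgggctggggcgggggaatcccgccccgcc
HMGCS1: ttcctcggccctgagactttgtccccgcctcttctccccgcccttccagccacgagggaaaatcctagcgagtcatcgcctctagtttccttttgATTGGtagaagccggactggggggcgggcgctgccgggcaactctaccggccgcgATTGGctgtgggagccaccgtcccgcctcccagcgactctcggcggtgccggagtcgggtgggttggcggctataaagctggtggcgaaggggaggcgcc
HSD17B7: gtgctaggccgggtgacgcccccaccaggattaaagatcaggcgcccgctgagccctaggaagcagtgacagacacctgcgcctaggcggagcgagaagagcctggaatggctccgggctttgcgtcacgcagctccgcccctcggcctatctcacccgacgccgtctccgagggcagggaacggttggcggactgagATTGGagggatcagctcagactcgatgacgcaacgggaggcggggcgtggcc
SC5D: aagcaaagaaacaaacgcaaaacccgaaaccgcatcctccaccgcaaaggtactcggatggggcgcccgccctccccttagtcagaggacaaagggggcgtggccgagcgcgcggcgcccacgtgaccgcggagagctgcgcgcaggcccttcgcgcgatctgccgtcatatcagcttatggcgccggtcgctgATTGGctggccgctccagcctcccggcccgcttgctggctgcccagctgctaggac
TMEM97: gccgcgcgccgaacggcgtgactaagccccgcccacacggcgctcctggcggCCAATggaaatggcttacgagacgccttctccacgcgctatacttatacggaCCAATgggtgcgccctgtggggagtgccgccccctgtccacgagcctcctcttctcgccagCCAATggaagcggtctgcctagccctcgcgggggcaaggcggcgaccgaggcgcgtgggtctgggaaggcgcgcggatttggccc
NPC1: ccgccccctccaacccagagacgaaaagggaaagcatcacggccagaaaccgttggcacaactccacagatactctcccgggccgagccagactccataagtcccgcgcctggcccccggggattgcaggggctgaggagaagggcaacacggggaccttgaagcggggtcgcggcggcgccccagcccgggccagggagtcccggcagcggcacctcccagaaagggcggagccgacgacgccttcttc

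The table of promoters held 34 such windows for 26 of the 30 genes, with no entry matched for ACAT2, FASN, FDFT1 and SQLE. A CCAAT box lay in 23 of the 34 windows (67.6%), against 32.0% of 35116 windows of the same length over all genes. By gene, 20 of 26 (76.9%) had one in at least 1 window, against 41.5% of 11036 tested genes. MVK and NSDHL carried 5 matches in their window and MSMO1 carried 4, counting both strands and overlapping matches. The stricter sterol response element was matched in SREBF2 alone among the members, 133 bases before its start (2.94% of the windows, against 0.883% of all windows), with a CCAAT box 106 bases before the start. SREBF1, SCAP, INSIG2, CYP51A1, PMVK and NPC1 held neither set of letters in these windows. A match describes the letters only, and the deposited build is hg19, so these coordinates do not belong to the deposited values.

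Before treatment the lines differed in level at a few steps of the pathway. Per gene length, the highest of the 30 in the untreated HepG2 library were the fatty acid desaturase SCD at 282 FPKM, the farnesyl diphosphate synthase FDPS at 261 FPKM and the fatty acid synthase FASN at 219 FPKM. In untreated Huh-7 the highest were the squalene synthase FDFT1 at 229 ± 6.58 FPKM, FDPS at 221 ± 7.18 FPKM and FASN at 208 ± 6.5 FPKM (SD, n = 3), and FDFT1 overlapped FDPS, and FDPS overlapped FASN, within the spread of the libraries. INSIG2 was the lowest member in both, at 3.46 FPKM in HepG2 and 4.95 ± 0.483 FPKM in Huh-7.

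**Figure D1:**
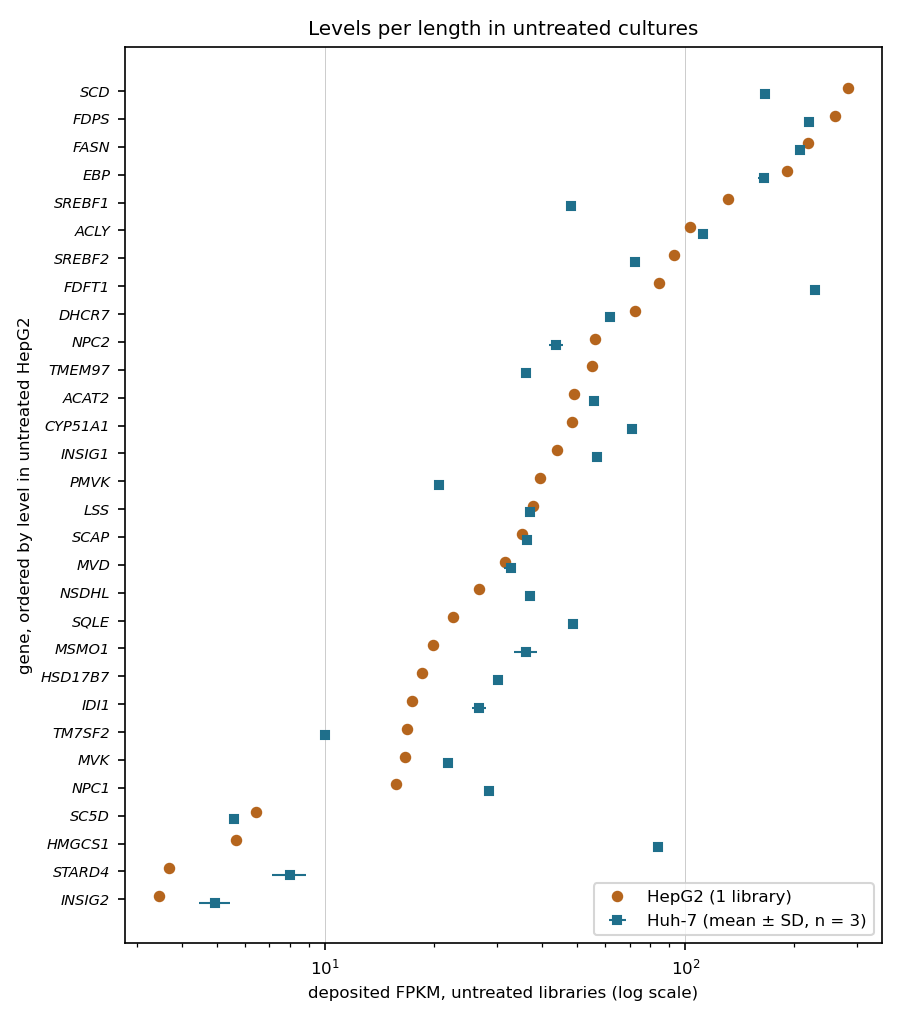
Level of the 30 genes in FPKM (log axis) in untreated cells, HepG2 (1 library) beside Huh-7 (mean of 3 libraries, bars SD), ordered by level in HepG2. HMGCS1 lies far apart in the lines, at 5.65 FPKM in HepG2 and 84.0 FPKM in Huh-7, while SCD, FDPS and FASN are near the top of both.

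Comparing untreated HepG2 with untreated Huh-7, 6 of the 30 genes differed at least 2-fold at an adjusted p under 0.05, against 26.8% of the 13633 genes tested (13.8% higher and 13.0% lower). All tests are edgeR quasi-likelihood tests, with p-values adjusted by the Benjamini-Hochberg method over all tested genes and written below as the edgeR adjusted p, and a gene was called only when it passed both thresholds. HMGCS1, the cytosolic HMG-CoA synthase that opens the mevalonate pathway, was at 26.5 CPM in the HepG2 library, against 379, 373 and 371 CPM in the Huh-7 libraries. That is 14.1-fold lower in HepG2 (log2 difference -3.82, SE 0.082, edgeR adjusted p = 5.01e-46). FDFT1 and the squalene epoxidase SQLE were also lower in HepG2, by log2 differences of -1.36 and -1.04, as was the sterol carrier STARD4 at -1.27, which was -0.93 and not called with limma on log2(FPKM + 1). SREBF1 was higher in HepG2, at 484 CPM against 169 ± 5.76 CPM in Huh-7 (log2 difference 1.52, SE 0.057, edgeR adjusted p = 1.48e-29), and so was the phosphomevalonate kinase PMVK at 1.01, a call lost under 5 other settings with values of 0.88 to 0.96, and without the second untreated Huh-7 library (0.99) or the second 12 h HepG2 library (0.96).

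More of these genes were called lower than higher with cinobufagin in each line, as was the case over all genes, and the share called was near that of all genes at 12 h. In HepG2 after 12 h 11 of 30 (36.7%) were called, 4 higher and 7 lower, against 37.8% of all tested genes (14.3% higher and 23.5% lower). In HepG2 after 24 h 13 of 30 (43.3%) were called, 4 higher and 9 lower, against 36.3% (14.1% higher and 22.2% lower). In Huh-7 after 12 h 13 of 30 (43.3%) were called, 2 higher and 11 lower, against 43.8% (16.8% higher and 27.1% lower). In Huh-7 after 24 h 16 of 30 (53.3%) were called, 3 higher and 13 lower, against 44.6% (17.8% higher and 26.8% lower). The median log2 change of the 30 was -0.17 and -0.30 in HepG2 at 12 and 24 h, beside -0.09 and -0.01 over all genes, and -0.75 and -0.89 in Huh-7, beside -0.10 and -0.04. The 12 h and 24 h comparisons of a line share its untreated libraries, so their values are set side by side here and not counted as independent.

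The numbers of calls and the share of them that were higher rest on the scaling. More members were called lower than higher under plain library sizes and upper-quartile scaling as well. With plain library sizes in place of TMM, the median log2 change of all genes moved by -0.40 and -0.27 in HepG2 at 12 and 24 h and by -0.42 and -0.35 in Huh-7, and the share of called genes that were higher was 19.2% and 24.1% in HepG2 and 21.2% and 24.2% in Huh-7, against 37.7%, 38.7%, 38.3% and 40.0% with TMM. Upper-quartile scaling gave 28.9% and 30.8% in HepG2 and 26.7% and 27.0% in Huh-7. With plain library sizes the members called higher and lower were 3 and 14 in HepG2 at 12 h, 3 and 9 at 24 h, 1 and 19 in Huh-7 at 12 h and 2 and 19 at 24 h. Plain library sizes added 7 members to the calls in HepG2 at 12 h (PMVK, MVD, FDPS, MSMO1, NSDHL, SCD and ACLY) and none at 24 h. In Huh-7 they added 8 at 12 h (ACAT2, IDI1, LSS, SC5D, DHCR7, SREBF1, INSIG2 and FASN) and 6 at 24 h (ACAT2, CYP51A1, NSDHL, SREBF1, SCAP and ACLY). The members called lower kept their calls under both scalings, while the gains of HMGCS1 and NPC2 lost theirs under at least 1 of them.

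**Figure D2:**
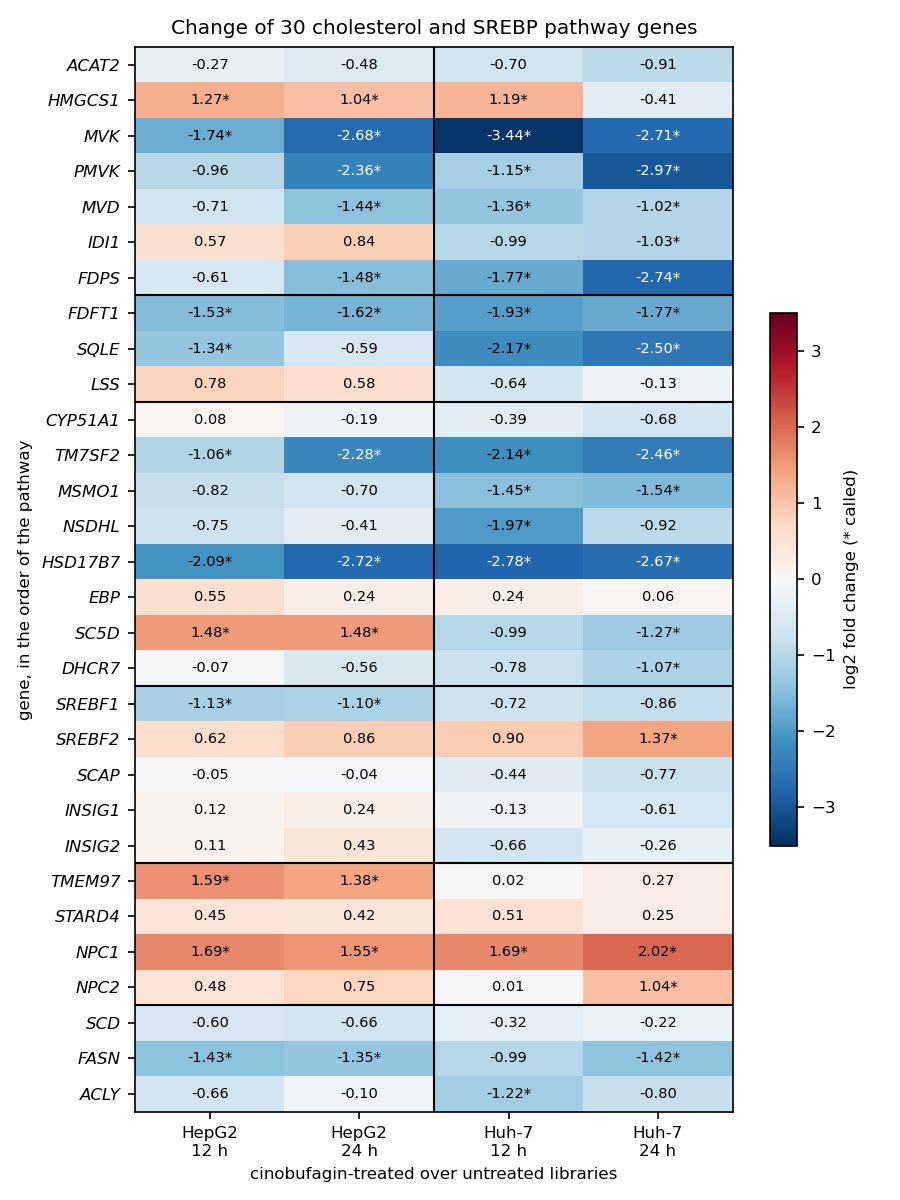
Log2 fold change of each of the 30 genes, treated over untreated, at 12 and 24 h in HepG2 and Huh-7, as a colour map with the value printed in each cell, blue for lower and red for higher, an asterisk for a called gene and lines between the roles. MVK, FDFT1, TM7SF2 and HSD17B7 are blue and called in all 4 columns, and NPC1 is red and called in all 4.

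In the mevalonate and isoprenoid group of 7 genes, 1 was higher and 1 lower in HepG2 at 12 h, 1 and 4 at 24 h, 1 and 4 in Huh-7 at 12 h and 0 and 5 at 24 h. The share called was 28.6% and 71.4% in HepG2 at 12 and 24 h, against 37.8% and 36.3% of all tested genes. In Huh-7 it was 71.4% at both times, against 43.8% and 44.6%. In role groups this small the shares are descriptions only. At 24 h the deepest losses were at the kinases that phosphorylate mevalonate and at FDPS, which condenses the isoprenoid units. In HepG2 FDPS was then close to MVD, at log2 changes of -1.48 and -1.44. At 12 h the order differed: MVD (-0.71) fell more than FDPS (-0.61) in HepG2, and MVD (-1.36) more than PMVK (-1.15) in Huh-7. The mevalonate kinase MVK was at 29.7 CPM in the untreated HepG2 library, at 8.56, 8.00 and 10.0 CPM after 12 h and at 4.93, 4.13 and 4.85 CPM after 24 h. In Huh-7 MVK was at 37.2, 36.2 and 36.3 CPM untreated, at 4.58, 2.63 and 2.83 CPM after 12 h and at 6.82, 4.88 and 5.05 CPM after 24 h. Every treated library lay well below the untreated ones, and HepG2 went lower at 24 h than at 12 h while Huh-7 was already at its lowest at 12 h. The loss of MVK was 3.35-fold and 6.4-fold in HepG2 at 12 and 24 h and 10.9-fold and 6.54-fold in Huh-7 (log2 -1.74, -2.68, -3.44 and -2.71, SE 0.14, 0.15, 0.13 and 0.11, largest edgeR adjusted p = 1.03e-17).

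PMVK, the next kinase, was lowest at 24 h in both lines. It was at 43.5 CPM in the untreated HepG2 library, at 24.8, 20.7 and 21.6 CPM after 12 h and at 9.07, 8.06 and 8.22 CPM after 24 h. The Huh-7 libraries held 21.6, 20.9 and 22.5 CPM untreated, 9.62, 10.1 and 9.49 CPM after 12 h and 3.20, 1.97 and 3.09 CPM after 24 h. No 2 groups of a line overlapped. At 24 h PMVK was 5.15-fold lower in HepG2 (log2 -2.36, SE 0.12, edgeR adjusted p = 1.9e-26) and 7.82-fold lower in Huh-7 (log2 -2.97, SE 0.14, edgeR adjusted p = 3.63e-29). At 12 h the Huh-7 loss was called (log2 -1.15) and the HepG2 change of -0.96 lay just inside 2-fold.

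FDPS differed between 24 h and 12 h by -0.86 in HepG2 and -0.98 in Huh-7, inside 2-fold. The untreated HepG2 library held 306 CPM, the 12 h libraries 208, 199 and 195 CPM and the 24 h libraries 109.7, 109 and 112 CPM. The untreated Huh-7 libraries held 237, 253 and 254 CPM, the 12 h libraries 72.2, 73.7 and 73.0 CPM and the 24 h libraries 37.4, 38.0 and 35.8 CPM. Replicates lay close together and the groups were far apart, with Huh-7 below HepG2 at both treated times. The HepG2 change was -0.61 at 12 h, not called, and -1.48 at 24 h (SE 0.054, edgeR adjusted p = 1.02e-33), and the Huh-7 changes were -1.77 and -2.74 (SE 0.045 and 0.05, largest edgeR adjusted p = 9.43e-43).

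MVD, the decarboxylase that makes isopentenyl diphosphate, was at 50.1 CPM in the untreated HepG2 library, at 33.1, 30.5 and 28.5 CPM after 12 h and at 17.3, 20.2 and 17.7 CPM after 24 h. In Huh-7 it was at 50.3, 47.7 and 51.3 CPM untreated, at 20.8, 19.5 and 17.6 CPM after 12 h and at 27.2, 24.7 and 21.6 CPM after 24 h. All treated libraries were below the untreated ones. MVD was called lower in HepG2 at 24 h (log2 -1.44), and in Huh-7 at 12 h (-1.36) and 24 h (-1.02). The last of these sat at the threshold, with -0.94 without the third treated library, and it was also not called without the third untreated one.

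HMGCS1 went the other way from these enzymes, and is given in full although it was chosen after its values were seen. In HepG2 it was at 26.5 CPM untreated, at 63.9, 63.2 and 64.9 CPM after 12 h and at 60.9, 53.1 and 49.4 CPM after 24 h. Its Huh-7 levels were 379, 373 and 371 CPM untreated, 831, 872 and 867 CPM after 12 h and 291, 276 and 280.4 CPM after 24 h. All treated libraries were above the untreated ones in HepG2 at both times and in Huh-7 at 12 h, while at 24 h the Huh-7 libraries were all below them. The log2 changes were 1.27 and 1.04 in HepG2 at 12 and 24 h and 1.19 in Huh-7 at 12 h (SE 0.093, 0.094 and 0.037, largest edgeR adjusted p = 2.26e-15), and -0.41 in Huh-7 at 24 h, not called. Under plain library sizes these 3 gains were 0.87, 0.77 and 0.78 and none was called, nor was any with limma (0.78, 0.69 and 0.78). The HepG2 gain at 24 h was 0.95 without the first 24 h library.

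The remaining genes of the group were IDI1, the isopentenyl diphosphate isomerase, and ACAT2, the cytosolic thiolase. IDI1 averaged 66.3 ± 2.38 CPM at 12 h and 80.2 ± 4.43 CPM at 24 h in HepG2, above the 44.7 CPM of the untreated library, by log2 changes of 0.57 and 0.84 that were not called. In Huh-7 it averaged 33.0 ± 1.57 and 32.0 ± 0.994 CPM at those times, below the 65.5 ± 2.89 CPM of the untreated libraries, with log2 changes of -0.99, just short of 2-fold, and -1.03, called. ACAT2 was not called in a treated comparison, with log2 changes of -0.27 to -0.91, but in Huh-7 it was -1.12 and -1.26 at 12 and 24 h with plain library sizes and called lower at both.

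Of the 3 genes that lead through squalene to lanosterol, 2 were called lower in HepG2 at 12 h, 1 at 24 h and 2 in Huh-7 at each time, with none higher. That is 66.7% and 33.3% in HepG2, against 37.8% and 36.3% of all tested genes, and 66.7% in Huh-7, against 43.8% and 44.6%. FDFT1 was at 159 CPM in the untreated HepG2 library, at 52.2, 54.6 and 58.8 CPM after 12 h and at 53.8, 49.8 and 51.9 CPM after 24 h. Huh-7 levels stood at 419.6, 407 and 402 CPM untreated, 104, 109 and 109 CPM after 12 h and 113, 124 and 123 CPM after 24 h. The treated libraries sat in a narrow band far below the untreated ones, and 12 h and 24 h were close. FDFT1 was called in all 4 comparisons (log2 -1.53 and -1.62 in HepG2, -1.93 and -1.77 in Huh-7, largest edgeR adjusted p = 2.86e-30).

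SQLE, the squalene epoxidase and a rate-limiting step, was at 58.1 CPM in the untreated HepG2 library, at 22.8, 22.5 and 23.4 CPM after 12 h and at 39.2, 36.5 and 40.3 CPM after 24 h. In Huh-7 it was at 121, 117 and 119.6 CPM untreated, at 28.5, 27.1 and 23.8 CPM after 12 h and at 20.9, 21.2 and 21.1 CPM after 24 h. Levels in HepG2 were back nearer the untreated library by 24 h, and those in Huh-7 were not. SQLE was called at 12 h in HepG2 (log2 -1.34, SE 0.091, edgeR adjusted p = 7.33e-21), not at 24 h (-0.59), and at both times in Huh-7 (-2.17 and -2.50). LSS, the lanosterol synthase that closes the ring, was called in no treated comparison, with log2 changes of 0.78 and 0.58 in HepG2 and -0.64 and -0.13 in Huh-7.

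Of the 8 genes that turn lanosterol into cholesterol, 1 was higher and 2 lower in HepG2 at both 12 and 24 h, and 4 and 5 were lower in Huh-7 at 12 and 24 h with none higher. The share called was 37.5% in HepG2 at both times, against 37.8% and 36.3% of all tested genes. In Huh-7 it was 50.0% and 62.5%, against 43.8% and 44.6%. HSD17B7, which acts as a sterol ketone reductase in this chain, was at 23.5 CPM in the untreated HepG2 library, at 5.76, 5.57 and 5.21 CPM after 12 h and at 3.49, 3.99 and 3.19 CPM after 24 h. The Huh-7 libraries held 36.7, 35.9 and 36.0 CPM untreated, 5.27, 4.57 and 6.02 CPM after 12 h and 6.58, 4.73 and 5.67 CPM after 24 h. The drop was 4.26-fold and 6.6-fold in HepG2 and 6.85-fold and 6.35-fold in Huh-7 at 12 and 24 h (largest edgeR adjusted p = 1.41e-19). The difference between the lines was 0.69 on the log2 scale at 12 h (SE 0.2, edgeR adjusted p = 0.00323), inside 2-fold, and -0.05 at 24 h (SE 0.2, edgeR adjusted p = 0.844).

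TM7SF2, a sterol reductase, was at 23.1 CPM in the untreated HepG2 library, at 10.2, 10.7 and 12.1 CPM after 12 h and at 4.14, 5.01 and 5.05 CPM after 24 h. Its Huh-7 levels were 12.6, 12.9 and 13.4 CPM untreated, 3.02, 2.97 and 2.83 CPM after 12 h and 2.07, 2.08 and 2.88 CPM after 24 h. All treated libraries were lower, with a further step down at 24 h in HepG2. The log2 changes were -1.06 and -2.28 in HepG2 and -2.14 and -2.46 in Huh-7 (SE 0.14, 0.16, 0.15 and 0.16), all called.

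NSDHL, the sterol dehydrogenase that works with MSMO1, was at 36.0 CPM in the untreated HepG2 library, at 21.4, 20.2 and 22.5 CPM after 12 h and at 23.3, 27.9 and 30.2 CPM after 24 h. In Huh-7 it was at 46.4, 49.1 and 47.6 CPM untreated, at 14.5, 11.3 and 10.6 CPM after 12 h and at 26.8, 23.9 and 25.2 CPM after 24 h. Its Huh-7 levels were lowest at 12 h and lay between the other groups at 24 h. The change was -1.97 at 12 h, called, and -0.92 at 24 h, not called, beside -0.75 and -0.41 in HepG2, not called. These calls rest on the scaling. In Huh-7 at 24 h NSDHL was called lower with plain library sizes (-1.27), upper-quartile scaling (-1.19) and limma (-1.21). In HepG2 at 12 h it was called lower with plain library sizes (-1.15) and limma (-1.09), and not with upper-quartile scaling (-0.93). The methylsterol oxidase MSMO1 was at 36.2 CPM in the untreated HepG2 library, at 19.9, 20.9 and 20.5 CPM after 12 h and at 23.6, 21.1 and 22.3 CPM after 24 h. In Huh-7 MSMO1 was at 68.6, 64.5 and 60.3 CPM untreated, at 24.9, 21.1 and 24.9 CPM after 12 h and at 20.8, 23.2 and 22.7 CPM after 24 h. It was called in Huh-7, at -1.45 and -1.54, and not in HepG2, at -0.82 and -0.70, and the difference between the lines was not called. The HepG2 change of MSMO1 at 12 h was called lower with plain library sizes (-1.22), upper-quartile scaling (-1.0) and limma (-1.13).

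SC5D, the lathosterol oxidase near the end of the chain, moved apart in the lines and was also chosen for full description after its values were seen. It was at 38.5 CPM in the untreated HepG2 library, at 107, 110.0 and 106 CPM after 12 h and at 118, 102 and 102 CPM after 24 h. Huh-7 levels stood at 31.5, 32.5 and 31.8 CPM untreated, 15.1, 15.4 and 17.6 CPM after 12 h and 12.9, 15.4 and 11.5 CPM after 24 h. Treated HepG2 libraries were all above the untreated one and treated Huh-7 libraries all below theirs. The HepG2 changes were 1.48 at both times (SE 0.09 and 0.089, largest edgeR adjusted p = 5.78e-23), and the one at 12 h was 0.98, not called, with limma on log2(FPKM + 1). The Huh-7 changes were -0.99, just short of 2-fold, and -1.27 (SE 0.091, edgeR adjusted p = 5.51e-20). DHCR7, the last reductase, was called in Huh-7 at 24 h (-1.07), beside -0.56 in HepG2 at that time, and CYP51A1, the lanosterol demethylase, and the isomerase EBP were not called, with changes of -0.68 to 0.08 and 0.06 to 0.55. With plain library sizes CYP51A1 was -1.03 and called lower in Huh-7 at 24 h, and EBP turned to -0.17 and -0.29 in Huh-7 at 12 and 24 h and to -0.03 in HepG2 at 24 h.

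Of the 5 genes that control the pathway, 1 was called lower in HepG2 at 12 and at 24 h. In Huh-7 none was called at 12 h and 1 was called higher at 24 h. With TMM the share called was thus below that of all tested genes in each comparison. The all-gene shares were 37.8% and 36.3% in HepG2 at 12 and 24 h and 43.8% and 44.6% in Huh-7. SREBF2 was at 425 CPM in the untreated HepG2 library, at 630.4, 671 and 659 CPM after 12 h and at 743, 778 and 786 CPM after 24 h. In Huh-7 it was at 313, 305 and 327 CPM untreated, at 578, 588 and 593 CPM after 12 h and at 817, 829 and 805 CPM after 24 h. Each time was higher than the one before it, with no overlap in either line. The log2 change passed 2-fold in Huh-7 at 24 h (1.37, SE 0.036, edgeR adjusted p = 1.89e-42) and was 0.90 there at 12 h and 0.62 and 0.86 in HepG2, not called. In the Huh-7 libraries of 24 h SREBF2 was thus called higher while MVK, FDFT1 and HSD17B7 were called lower.

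SREBF1 was at 484 CPM in the untreated HepG2 library, at 228, 223 and 213 CPM after 12 h and at 204, 231 and 242 CPM after 24 h. The Huh-7 libraries held 163, 169 and 174 CPM untreated, 105, 98.9 and 103 CPM after 12 h and 91.8, 98.4 and 87.9 CPM after 24 h. The treated libraries were all below the untreated ones. The loss was called in HepG2 (log2 -1.13 and -1.10, SE 0.058 and 0.057, largest edgeR adjusted p = 1.22e-23) and was -0.72 and -0.86 in Huh-7, not called. The contrast in calls rests on the scaling, since with plain library sizes the Huh-7 changes were -1.13 and -1.21 and both were called.

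SCAP, the escort of the SREBPs, was at 126 CPM in the untreated HepG2 library, at 119, 126 and 121 CPM after 12 h and at 112, 128 and 129 CPM after 24 h. In Huh-7 it was at 125, 125 and 124 CPM untreated, at 95.1, 88.7 and 91.4 CPM after 12 h and at 70.6, 77.8 and 71.1 CPM after 24 h, with log2 changes of -0.44 and -0.77 that were not called with TMM. The Huh-7 change of SCAP at 24 h was called lower with plain library sizes (-1.12), upper-quartile scaling (-1.05) and limma (-1.08). INSIG1 and INSIG2, which hold SCAP back, were not called with TMM either. With plain library sizes INSIG2 was -1.08 and called lower in Huh-7 at 12 h. INSIG1 was at 114 CPM in the untreated HepG2 library, at 124, 124 and 122 CPM after 12 h and at 135, 137 and 131 CPM after 24 h. The Huh-7 libraries held 137, 137 and 144 CPM of INSIG1 untreated, 127, 126 and 129 CPM after 12 h and 92.0, 98.7 and 84.0 CPM after 24 h. Treated libraries were thus above the untreated one in HepG2 and below the untreated ones in Huh-7, all within 2-fold, and the HepG2 direction turned with plain library sizes. INSIG2 was at 7.69 CPM in the untreated HepG2 library, at 7.88, 7.56 and 9.46 CPM after 12 h and at 11.7, 9.63 and 9.80 CPM after 24 h. The Huh-7 libraries held 10.9, 11.6 and 9.36 CPM of INSIG2 untreated, 7.38, 5.83 and 6.89 CPM after 12 h and 8.89, 9.96 and 7.83 CPM after 24 h. Its groups overlapped between HepG2 at 0 and 12 h and between Huh-7 at 0 and 24 h.

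**Figure D3:**
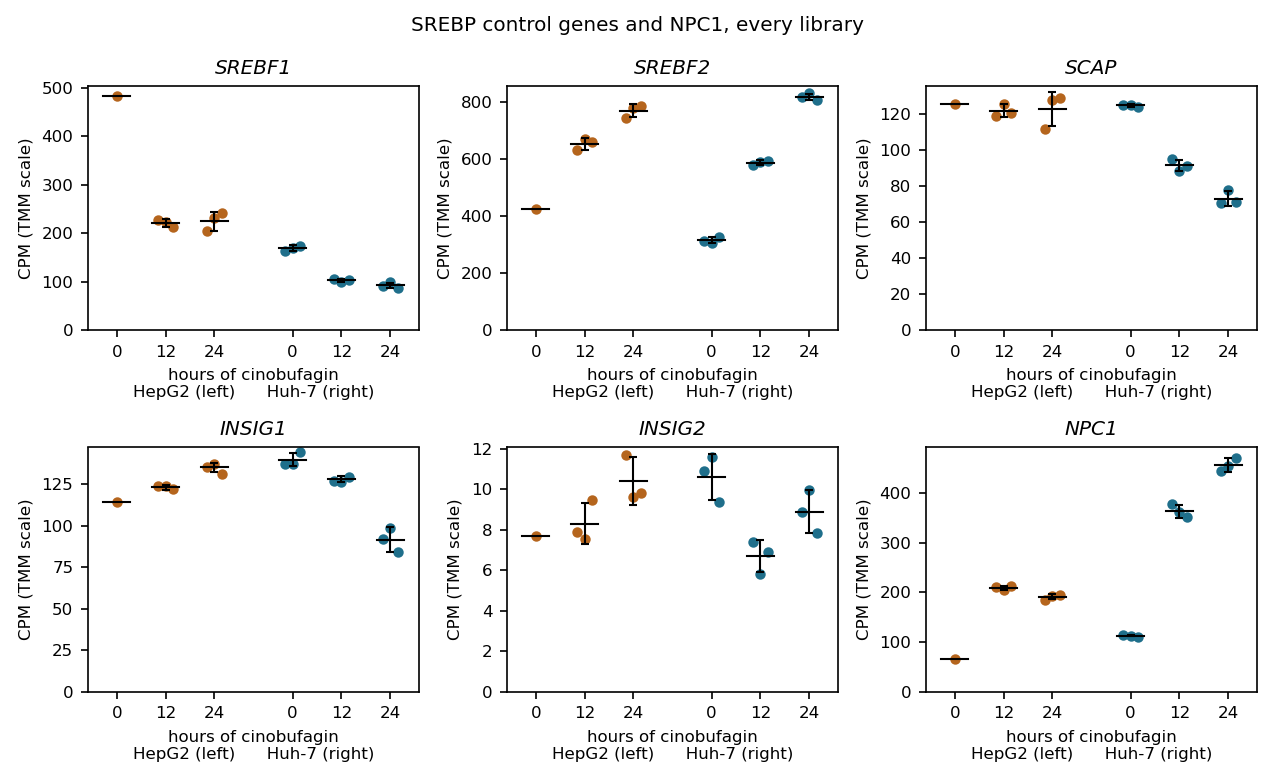
CPM on the TMM scale in every library for SREBF1, SREBF2, SCAP, INSIG1, INSIG2 and NPC1 against hours of cinobufagin, HepG2 left of Huh-7, with group means and SD. Within each line, every treated library is above the untreated ones for SREBF2 and NPC1 and below them for SREBF1.

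Among the 4 sterol transport genes, 2 were higher in HepG2 at both times and 1 and 2 were higher in Huh-7 at 12 and 24 h, with none lower. That is 50.0% in HepG2 at both times, against 37.8% and 36.3% of all tested genes, and 25.0% and 50.0% in Huh-7, against 43.8% and 44.6%. NPC1, the lysosomal membrane protein that exports cholesterol, was called higher in all 4 comparisons. It was at 65.0 CPM in the untreated HepG2 library, at 211, 205 and 212 CPM after 12 h and at 185, 193 and 194 CPM after 24 h. Its Huh-7 levels were 114, 113 and 111 CPM untreated, 377, 361 and 352 CPM after 12 h and 444, 454 and 471 CPM after 24 h. Every treated library was far above the untreated ones of its line, and the gain was 3.22-fold and 2.93-fold in HepG2 and 3.22-fold and 4.05-fold in Huh-7 (SE of log2 0.067, 0.067, 0.04 and 0.04, largest edgeR adjusted p = 5.78e-30). NPC1 kept its call under every alternative setting and with each library left out that could be.

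TMEM97, an endoplasmic reticulum and lysosomal protein that binds sterols and NPC1, was at 122 CPM in the untreated HepG2 library, at 379.9, 354 and 369 CPM after 12 h and at 323, 316 and 312 CPM after 24 h. Huh-7 levels stood at 75.5, 74.9 and 77.8 CPM untreated, 80.2, 74.2 and 76.7 CPM after 12 h and 93.7, 93.5 and 88.7 CPM after 24 h. Treated HepG2 libraries were all far above the untreated one, while those of Huh-7 at 12 h overlapped theirs. The HepG2 changes were 1.59 and 1.38, called, and the Huh-7 changes 0.02 and 0.27, not called. NPC2, the soluble partner of NPC1 in the lysosome, was at 43.0 CPM in the untreated HepG2 library, at 64.9, 57.2 and 57.4 CPM after 12 h and at 79.4, 69.1 and 68.5 CPM after 24 h. The Huh-7 libraries held 30.7, 33.6 and 31.5 CPM of NPC2 untreated, 35.4, 28.2 and 32.5 CPM after 12 h and 65.5, 66.9 and 64.7 CPM after 24 h, with overlap between 0 and 12 h. Its gain was called in Huh-7 at 24 h (1.04, SE 0.068, edgeR adjusted p = 1.98e-21), but not with upper-quartile scaling (0.76) or plain library sizes (0.69). STARD4 was not called, with changes of 0.25 to 0.51. Some of these uncalled gains turned with the processing. With plain library sizes STARD4 was -0.10 in Huh-7 at 24 h, TMEM97 was -0.40 and -0.08 in Huh-7 at 12 and 24 h, and NPC2 was -0.41 in Huh-7 at 12 h. With limma STARD4 was -0.04 and -0.12 in HepG2 at 12 and 24 h and -0.15 in Huh-7 at 24 h.

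Of the 3 fatty acid synthesis genes, 1 was called lower in each of the 4 comparisons and none higher. Each is 33.3%, against 37.8% and 36.3% of all tested genes in HepG2 at 12 and 24 h and 43.8% and 44.6% in Huh-7. FASN was at 1606 CPM in the untreated HepG2 library, at 589, 599 and 604 CPM after 12 h and at 567, 649.8 and 674 CPM after 24 h. In Huh-7 it was at 1444, 1413 and 1508 CPM untreated, at 751, 716 and 726 CPM after 12 h and at 534, 546 and 554 CPM after 24 h. Treated libraries were lower throughout. FASN was called in HepG2 at both times (-1.43 and -1.35) and in Huh-7 at 24 h (-1.42, SE 0.04, edgeR adjusted p = 1.3e-31), and lay at -0.99 in Huh-7 at 12 h, just short of 2-fold. ACLY, which makes the cytosolic acetyl-CoA used by both syntheses, was at 389 CPM in the untreated HepG2 library, at 258, 234 and 245 CPM after 12 h and at 351, 367 and 367 CPM after 24 h. In Huh-7 ACLY was at 401, 396 and 399.7 CPM untreated, at 166, 173 and 176 CPM after 12 h and at 219.7, 218 and 250.2 CPM after 24 h. It was called lower in Huh-7 at 12 h (-1.22), beside -0.66 in HepG2 at that time, and SCD was not called, with changes of -0.22 to -0.66.

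Few members were called between the treated times. In HepG2 at 24 h against 12 h, 2 of 30 (6.67%) were called, against 11.8% of all genes (6.51% higher and 5.30% lower), both lower: PMVK (-1.40) and TM7SF2 (-1.22, or -0.87 and not called with limma). No member was called higher there by edgeR, with 8 at an unadjusted p under 0.05 and 0 by DESeq2 or limma. At an edgeR adjusted p under 0.05 the number higher was also 8, with changes inside 2-fold. In Huh-7, 4 of 30 (13.3%) were called, against 13.0% of all genes (6.5% higher and 6.52% lower). NSDHL (1.05) and NPC2 (1.03) were higher at 24 h, and HMGCS1 (-1.60) and PMVK (-1.81) were lower. NSDHL was at 0.97 without the third 12 h library and NPC2 at 0.95 without the second, neither called.

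The lines were compared by testing the HepG2 change minus the Huh-7 change in the same fit. At 12 h, 8 of 30 (26.7%) differed, against 17.8% of all genes (9.44% higher and 8.36% lower), and all 8 were higher in HepG2 relative to Huh-7. At 24 h, 6 of 30 differed, against 23.9% (13.1% higher and 10.8% lower), and again all were on the side of HepG2. No member was called on the side of Huh-7 at 12 or 24 h by edgeR, with 4 and 6 at an unadjusted p under 0.05 and 0 by DESeq2 or limma. At an edgeR adjusted p under 0.05 the numbers on that side were also 4 and 6, with differences inside 2-fold. The median difference over the 30 was 0.51 and 0.50, beside 0.02 and -0.01 over all genes, and 24 and 23 of the 30 were positive. The share of positive differences over all genes was not computed. All of these differences rest on the single untreated HepG2 library, so their signs are not independent. SC5D differed most, by 2.48 at 12 h and 2.75 at 24 h (SE 0.13 for both, edgeR adjusted p = 1.19e-25 and 7.74e-28). IDI1 (1.56 and 1.88), TMEM97 (1.57 and 1.10) and FDPS (1.15 and 1.27) also differed at both times. MVK (1.70), LSS (1.42), NSDHL (1.22) and TM7SF2 (1.07) differed at 12 h, and SQLE (1.91) and HMGCS1 (1.45) at 24 h. TM7SF2 was 1.00 without the third 12 h HepG2 library, just short of the threshold, and 0.68 with limma. The change between 12 and 24 h itself differed between the lines for 4 of 30 (13.3%), against 12.2% of all genes (6.92% higher and 5.28% lower): HMGCS1 (1.37) and SQLE (1.09) on the side of HepG2, and MVK (-1.67) and MVD (-1.08) on the side of Huh-7. MVD was not called there with limma (-0.93) or without the first 24 h Huh-7 library. NPC1 was the gene whose difference was nearest to 0 at 12 h, with an edgeR adjusted p of 0.99, which does not show that the lines act alike.

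**Figure D4:**
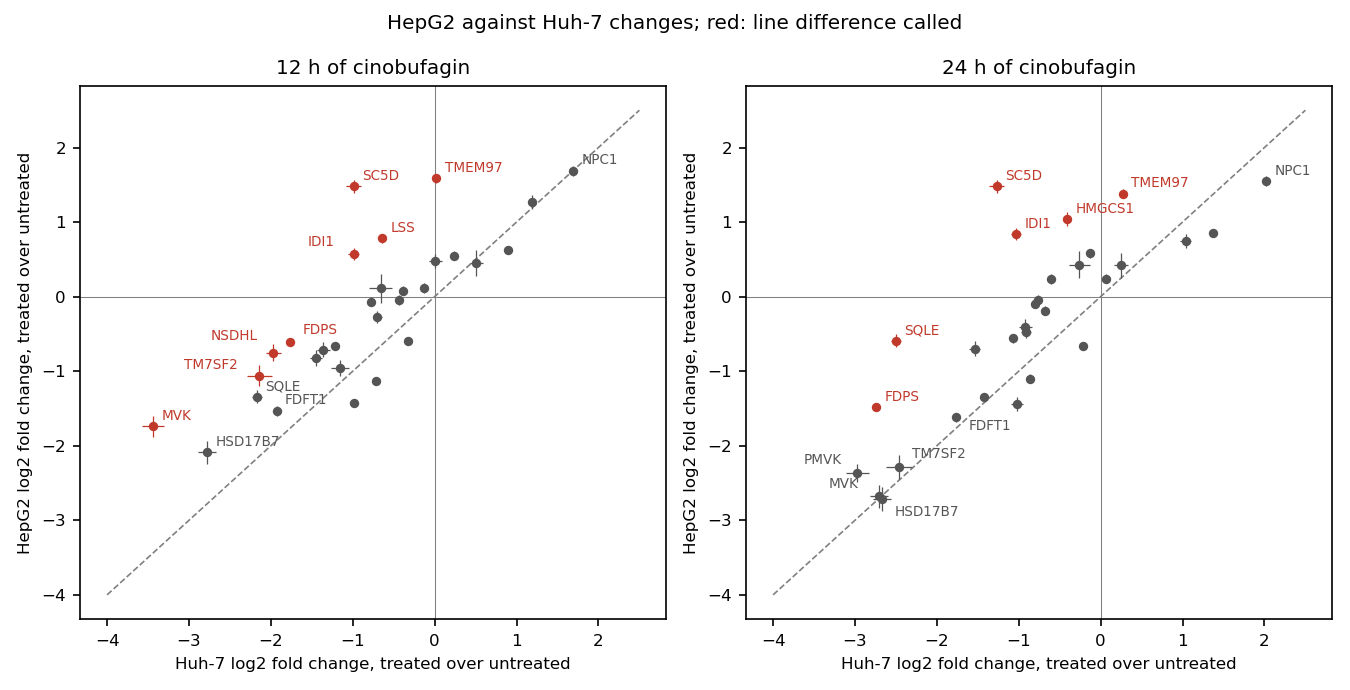
HepG2 log2 fold change against Huh-7 log2 fold change for the 30 genes at 12 h and at 24 h, with bars of 1 SE and a dashed line of equal change; red points are genes whose line difference was called. Most points lie above the line, SC5D farthest from it, and NPC1 near it at 12 h.

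**Figure D5:**
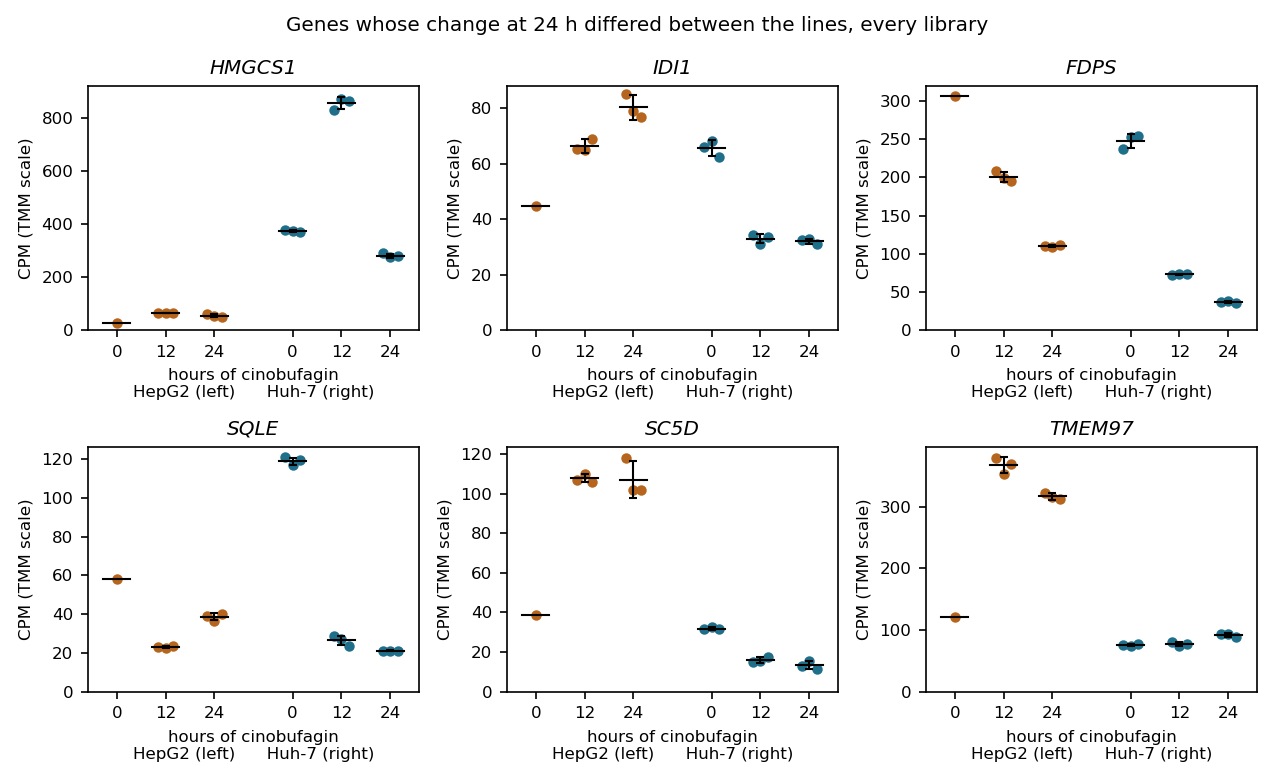
CPM on the TMM scale in every library for the 6 genes whose change at 24 h differed between the lines (HMGCS1, IDI1, FDPS, SQLE, SC5D and TMEM97) against hours of cinobufagin, HepG2 left of Huh-7, with group means and SD. HMGCS1, SC5D, TMEM97 and IDI1 are higher in treated than untreated HepG2, and SC5D and IDI1 are lower in treated Huh-7. FDPS and SQLE are lower in treated cells of both lines. In Huh-7 HMGCS1 is higher at 12 h and lower at 24 h than untreated.

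Some genes were called in the same direction in both lines. At 12 h HMGCS1 and NPC1 were higher in both, which is 50.0% of the 4 calls in HepG2 and both calls in Huh-7. Lower in both were MVK, FDFT1, SQLE, TM7SF2 and HSD17B7, 71.4% of the 7 in HepG2 and 45.5% of the 11 in Huh-7. Over all tested genes, the calls shared by the lines at 12 h were 64.3% of those higher in HepG2 and 54.7% of those higher in Huh-7, and 73.8% and 64.2% of those lower. At 24 h NPC1 was the gene higher in both, 25.0% of 4 and 33.3% of 3. Lower in both were MVK, PMVK, MVD, FDPS, FDFT1, TM7SF2, HSD17B7 and FASN, 88.9% of the 9 in HepG2 and 61.5% of the 13 in Huh-7. Over all tested genes the shared calls at 24 h were 56.7% and 44.7% of those higher in HepG2 and in Huh-7, and 72.1% and 59.8% of those lower. With so few members the shares are descriptions, and sharing of calls between the lines was common over all genes.

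Other genes of the pathway were counted from 5 lists. Of 19 tested further sterol and uptake genes, 1 was higher and 2 lower in HepG2 at 12 h, 1 and 4 at 24 h, 2 and 4 in Huh-7 at 12 h and 2 and 5 at 24 h. The share called was 15.8% and 26.3% in HepG2 at 12 and 24 h, against 37.8% and 36.3% of all tested genes, and 31.6% and 36.8% in Huh-7, against 43.8% and 44.6%. The endocytic receptor LRP1 was lower in HepG2 at 24 h (-1.73; -0.79 at 12 h, not called) and in Huh-7 at both times (-1.90 and -2.73). The lysosomal lipase LIPA was lower in HepG2 at 24 h (-1.78; -0.60 at 12 h, not called) and in Huh-7 at both times (-1.10 and -2.27), and the sterol transfer gene GRAMD1A was lower in all 4 comparisons (-1.77, -1.58, -1.74 and -1.19).

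Of 20 genes for SREBP processing and sterol-regulated protein degradation, 5 were higher and 2 lower in HepG2 at 12 h, 3 and 3 at 24 h, 6 and 3 in Huh-7 at 12 h and 8 and 3 at 24 h. The share called was 35.0% and 30% in HepG2, against 37.8% and 36.3% of all tested genes, and 45.0% and 55.0% in Huh-7, against 43.8% and 44.6%. MBTPS1, the first protease that cuts the SREBPs, was lower at 12 and 24 h in HepG2 (-1.26 and -1.48, at 85.9 CPM at 24 h against 240.3 CPM untreated) and in Huh-7 (-1.52 and -2.51, at 29.7 CPM at 24 h against 169.7 CPM untreated). MBTPS2, the second, was lower in HepG2 at 24 h (-1.04; -0.84 at 12 h, not called) and in Huh-7 at both times (-2.18 and -1.65). SPRING1, which helps SCAP return from the Golgi, was higher at both times in HepG2 (1.73 and 1.96) and in Huh-7 (1.27 and 2.31). SEC24A, a coat protein of the vesicles that leave the endoplasmic reticulum, was higher in HepG2 at 12 h (1.82; 0.82 at 24 h, not called) and in Huh-7 at both times (2.21 and 1.10).

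Of 10 tested LXR and efflux genes, NR1H3, which encodes the sterol-sensing receptor LXRα and whose activity raises SREBF1 in liver, had the deepest loss. It was lower at 12 and 24 h in HepG2 (-3.57 and -2.69, at 2.53 and 4.67 CPM against 30.1 CPM untreated) and in Huh-7 (-4.81 and -4.80, at 1.84 and 1.86 CPM against 52.2 CPM untreated). Of the 10, none was higher and 3 lower in HepG2 at 12 h, 1 and 3 at 24 h, 0 and 3 in Huh-7 at 12 h and 2 and 3 at 24 h, a share called of 30% and 40.0% in HepG2 and 30% and 50.0% in Huh-7. Over all tested genes the share called was 37.8% and 36.3% in HepG2 and 43.8% and 44.6% in Huh-7. These all-gene shares also apply to the lists that follow. Of 20 tested fatty acid genes, 1 was higher and 5 lower in HepG2 at 12 h, 3 and 5 at 24 h, 1 and 7 in Huh-7 at 12 h and 2 and 7 at 24 h, a share called of 30% and 40.0% in HepG2 and 40.0% and 45.0% in Huh-7. ACSS2, which makes acetyl-CoA from acetate, was lower in HepG2 (-2.02 and -2.70) and Huh-7 (-3.86 and -2.71), and ACACB, the mitochondrial acetyl-CoA carboxylase, was lower in HepG2 (-2.93 and -2.82) and Huh-7 (-3.09 and -4.71). Of 19 genes of the isoprenoid branches, 4 were higher and 3 lower in HepG2 at 12 h, 2 and 4 at 24 h, 3 and 4 in Huh-7 at 12 h and 2 and 8 at 24 h, a share called of 36.8% and 31.6% in HepG2 and 36.8% and 52.6% in Huh-7. The coenzyme Q enzyme COQ5 was lower in HepG2 (-3.92 and -3.30) and in Huh-7 (-4.43 and -5.35). The prenyltransferase subunit RABGGTB was higher in HepG2 (1.97 and 2.17) and in Huh-7 at 12 h (1.10; 0.81 at 24 h, not called).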

How the data were processed

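The authors deposited, for each of the 16 libraries, a table of genes with length, expected count and FPKM, per the file headers. Expected counts are estimates of the reads from a gene, and 31.1% to 32.3% of them were not whole. The deposited FPKM values divide the count by length and library size. HISAT, Bowtie2, RSEM and the hg19 build are named, without versions, per the submitters' processing notes. Gene length was not used in a test. An unlisted gene was entered as 0. Of 16697 identifiers, 16665 were named through a table on GRCh38.p14, used for names alone.

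Expected counts were rounded to whole numbers, filtered with filterByExpr (13633 genes kept, 3064 removed), scaled by TMM and fitted with edgeR 4.0.16 (quasi-likelihood, 6 groups, 10 residual degrees of freedom) in R 4.3.3. A gene was called at a Benjamini-Hochberg adjusted p under 0.05 over all tested genes and at least 2-fold, in 10 comparisons. Alternatives used DESeq2 1.42.0, limma 3.58.1 on log2(FPKM + 1), other scalings, no filter, a 1.5-fold threshold, libraries of 1 line, a replicate block and each library left out. Replicate libraries correlated at 0.9958 or higher, and no pair was close enough to be 1 library deposited again. Same-numbered libraries of different groups deviated together with a correlation of -0.06 to 0.075 over 30 pairs. No pairing by number was thus detected, but counting error could hide a weak one.

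The 30 genes, the gene lists and the motifs were chosen with earlier results of these data known. Values per library are given for the called genes with the largest change in each role, up to 4 a role, and for the SREBF, SCAP and INSIG genes; HMGCS1 and SC5D fall outside this rule. Of each list at most 4 called genes averaging at least 10 CPM are named, those with the largest change. Promoter sequences come from RefSeq on GRCh38.p14. Some genes of the lists are not reported here by name.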

Additional observations from a re-analysis of the deposited data

Results flagged for a closer look

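The response to cinobufagin differed between the lines for 11 of the 30 genes in at least 1 of 3 tests. Each tested the difference itself (HepG2 change minus Huh-7 change, edgeR quasi-likelihood with Benjamini-Hochberg adjustment, log2 scale). The tests at 12 h, at 24 h and between the times called 8, 6 and 4 of the 30. They called 17.8%, 23.9% and 12.2% of all tested genes. The share of all genes called in at least 1 of the 3 was not computed. The count of 11 thus has no background to set it against and is a description only. At 12 h the differences were 1.70 for MVK, 1.56 for IDI1, 1.15 for FDPS, 1.42 for LSS, 1.07 for TM7SF2, 1.22 for NSDHL, 2.48 for SC5D and 1.57 for TMEM97. At 24 h they were 1.45 for HMGCS1, 1.88 for IDI1, 1.27 for FDPS, 1.91 for SQLE, 2.75 for SC5D and 1.10 for TMEM97. For the change between 12 h and 24 h they were 1.37 for HMGCS1, -1.67 for MVK, -1.08 for MVD and 1.09 for SQLE. Each difference at 12 or 24 h rests on the single untreated HepG2 library.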

How the results depend on the processing

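No alternative turned the direction of a called member. The number of members called moved by more than 1.5 times in these cases. With a 1.5-fold threshold it was 20 in HepG2 at 12 h (11 at 2-fold), 22 in Huh-7 at 12 h (13), 7 in HepG2 at 24 h against 12 h (2), 14, 13 and 10 for the line differences at 12 h, 24 h and between the times (8, 6 and 4), and 12 for untreated HepG2 against Huh-7 (6). With plain library sizes it was 17 in HepG2 and 20 in Huh-7 at 12 h. With limma on log2(FPKM + 1) it was 1 in HepG2 at 24 h against 12 h. The cause was not tested. Leaving out each library gave 11 to 12 calls in HepG2 at 12 h, 12 to 13 at 24 h, 13 to 16 in Huh-7 at 12 h, 15 to 16 at 24 h, 2 in HepG2 and 3 to 5 in Huh-7 at 24 h against 12 h, 7 to 8, 6 and 3 to 4 for the line differences, and 5 to 6 between the untreated lines. Comparisons that need the untreated HepG2 library have no value without it. With the replicate block the line difference at 12 h had 7 calls (TM7SF2 at 0.99) and the untreated comparison 5 (PMVK at 0.94), and the other counts were as without it. No pairing of the libraries by number was detected, though a weak one was not excluded. Genes at the lowest levels, such as TM7SF2 and PMVK in Huh-7 at 24 h (2.34 and 2.75 CPM), are limited by depth.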
